A study of Rattus norvegicus with 6 samples.

Results

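The cytosolic heat shock chaperones and their cochaperones were examined in INS-1E cells, an insulin-secreting line derived from a rat insulinoma. Members were found by gene symbol: HSP70, small HSP, HSP110 and HSP90 genes, J proteins of classes A and B, subunits of the CCT chaperonin, BAG family genes, the factors Hsf1 and Hsf2, the Ahsa genes, and Stip1 and Hspbp1. Hspa5, Hspa9, Hsp90b1, Dnajb9 and Dnajb11, whose proteins work in the endoplasmic reticulum or in mitochondria, were left out. The search gave 58 of the 19289 listed features. Messenger RNA had been sequenced in 3 libraries from INS-1E cells kept with uric acid for 24 hours and in 3 libraries from untreated INS-1E cells, with no vehicle or concentration in the labels. Because the labels do not say whether the libraries of a group came from separate cultures, every p-value here measures only the spread among these 6 libraries. The gene ontology terms carried by the deposited table placed 33 of the 58 members in the cytosol, against 13.4% of all listed features. They gave unfolded protein binding to 28 of the 58, against 0.456% of all listed features. Because the members were picked by chaperone symbols, these shares describe the set and do not test its name. The 33 include Dnaja3 and Hspa13. A symbol match also drew in genes that are not cytosolic chaperones. Dnaja3 encodes a mitochondrial J protein, and Hspa13, Dnajb12 and Dnajb14 encode proteins tied to the endoplasmic reticulum. Hspb11 (also called Ift25), Hspbap1 and Hsf2bp were drawn in by symbol and are not themselves chaperones. The Cct8l1 pair, copies related to Cct8, carries chaperonin terms and is among the 28.

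Cytosolic chaperones bind unfolded stretches of protein and give them a chance to fold. HSP70 does so in cycles of ATP hydrolysis, which J proteins start and exchange factors such as HSP110 and BAG proteins end, and the cochaperone Stip1 hands clients on to HSP90. CCT is a closed chamber that folds actin and tubulin. Transcription of many of these genes is driven by the heat shock factor HSF1, which binds inverted repeats of the letters GAA, known as heat shock elements. In beta cells the cytosolic chaperones serve beside those of the endoplasmic reticulum, where proinsulin folds.

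Genes of HSP70, its J proteins and exchange factor, and HSP90 were among those that fell. Of the 58 members, 47 had a mean of at least 1 FPKM (fragments scaled to transcript length and library size) over the 6 libraries and were tested; the other 11 were listed below that level. At an adjusted p under 0.05 in edgeR's quasi-likelihood test, with Benjamini-Hochberg adjustment over all 12460 tested features, 7 members fell: Hsph1, Hspa8, Hspa1b, Dnaja1, Dnajb1, Hsp90aa1 and Ahsa2. Dnajb4 was the 1 member that rose. The 7 are 14.9% of the tested members, where 2.99% of all tested features fell, and the 1 is 2.13%, where 4.99% of all tested features rose (7.98% in either direction). DESeq2 called 11 members lower and 3 higher, where it called 6.36% and 7.8% of all tested features (14.2% in either direction), and limma on log2(FPKM + 1) called 7 lower and 1 higher, against 2.31% and 4.28% (6.59% in either direction). At an unadjusted p under 0.05 in edgeR, 14 members were lower and 5 higher, against 12.0% and 13.7% of all tested features (25.7% in either direction). The median log2 fold change was -0.07 over the tested members and 0.00127 over all tested features, and 63.8% of the members against 49.8% of all features had a value below 0. All 3 uric acid libraries lay below all 3 untreated libraries for 16 members (34% of those tested, against 14.2% of all features) and above them for 7 members (14.9%, against 16.8%; 31.0% of all features did not overlap in either direction). In these bulk libraries fewer cells that express a gene and less RNA per cell cannot be told apart.

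The count of 7 was sensitive to leaving out a library, in fits that have 1 library fewer. The median log2 fold change of the 7, which were chosen on this contrast, ran from -0.42 to -0.37 in those fits. It was -0.39 with all 6 libraries. Without uric acid libraries 1, 2 and 3 the members that fell numbered 3, 5 and 5, and without untreated libraries 1, 2 and 3 they numbered 2, 1 and 5. The 5 without untreated library 3 were 4 of the 7 and Hspa13. Over all tested features the count of 372 lower changed in the same fits, to 75, 271 and 466 without uric acid libraries 1, 2 and 3 and to 104, 66 and 179 without untreated libraries 1, 2 and 3, so the dependence is not particular to the members.

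**Figure D1:**
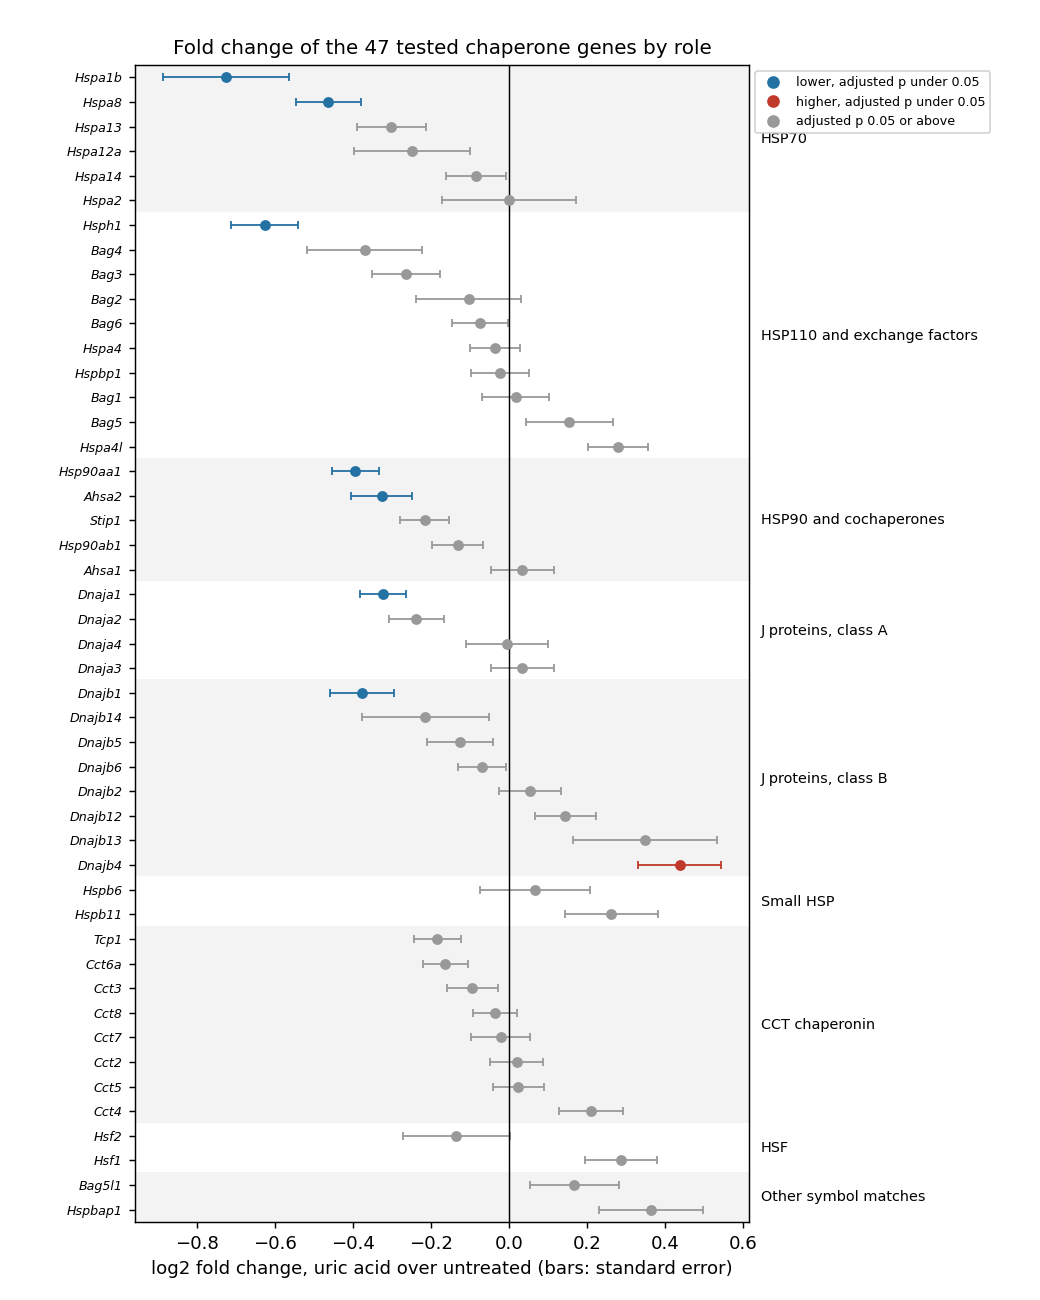
Log2 fold change of uric acid over untreated (edgeR, horizontal axis, bars give the standard error) for the 47 tested members, grouped by role. Blue points fell and the red point rose at an adjusted p under 0.05; the 2 values farthest below 0 are Hspa1b at -0.73 and Hsph1 at -0.63.

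Summed estimated counts ran from 41191819 to 48875962 in the uric acid libraries and from 47858248 to 59092982 in the untreated libraries. Ins1, an insulin gene, stood at 43003 to 55064 FPKM with uric acid and at 44093 to 54102 FPKM untreated, and the groups of Ins2 overlapped too. The other 3 of the 5 beta-cell markers, all transcription factors, were lower in every uric acid library: Mafa at 254.0 to 313 against 369.7 to 399.6 FPKM, Pdx1 at 219.7 to 250.3 against 268.5 to 294.7 FPKM, and Nkx6-1 at 38.2 to 42.3 against 42.9 to 48.3 FPKM. Mafa fell (log2 fold change -0.46, edgeR adjusted p = 0.0129), while Pdx1 (-0.26, adjusted p = 0.0699) and Nkx6-1 (-0.16, adjusted p = 0.18) missed the threshold. These markers moved the same way as the chaperones that fell, and their part in those results was not tested. Among markers of other cells, Gcg of alpha cells was listed at 7.47 to 10.6 FPKM with uric acid against 5.46 to 10.2 FPKM untreated, Col1a1 of fibroblasts at up to 0.706 against up to 1.007 FPKM, and the duct keratin Krt19 at up to 0.0438 FPKM against 0. Uric acid library 2 stood apart from the other uric acid libraries in several members, which is said for some of them below. A missing remark does not mean that library 2 lay with the others.

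Hspa8, the constitutive HSP70 that folds new proteins and uncoats clathrin vesicles, was the most abundant HSP70 gene among the members. It read 282, 226 and 258 FPKM in uric acid libraries 1, 2 and 3, against 348, 375 and 332 FPKM in untreated libraries 1, 2 and 3. The groups did not overlap, and uric acid library 2 was the lowest. The means were 255 ± 28.0 FPKM with uric acid and 352 ± 21.8 FPKM untreated (SD, n = 3 each), a log2 fold change of -0.46 ± 0.08 (standard error, edgeR adjusted p = 0.0133), or 27.5% lower. Hspa8 held 98.5 to 98.8% of the summed FPKM of Hspa8, Hspa1b, Hspa1l and Hspa2 in the uric acid libraries and 98.6 to 98.7% in the untreated libraries, so the total of the 4 genes followed Hspa8. The adjusted p was 0.0522 without untreated library 1 and 0.0812 without untreated library 2. Hspa8 (ENSRNOG00000034066) lies on chromosome 8 from 44990014 to 44993179 in the deposited coordinates, for which no source used here names a genome build, and 3 small nucleolar RNA features on the same strand lie inside it, each with a mean under 1 FPKM.

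Hspa1b, the stress-inducible HSP70, was expressed at a low level and fell. It read 1.85, 1.53 and 2.17 FPKM with uric acid, against 3.18, 3.09 and 2.94 FPKM untreated, from estimated counts of 269, 189 and 296 against 564, 484 and 423. All 3 uric acid values lay below the untreated ones, and the log2 fold change was -0.73 ± 0.16 (edgeR adjusted p = 0.0292). Leaving out 1 library kept this call only without uric acid library 3 (0.0199); the other 5 adjusted p-values ran from 0.0551 to 0.113. Its span on chromosome 20, from 4877324 to 4879779, lies within 3 tested RT1-CE features on the same strand with log2 fold changes between -0.01 and 0.20, and a near-identical copy of the gene exists, so the assignment of its reads is uncertain. Of the other HSP70 members, Hspa13, an HSP70-like ATPase of the endoplasmic reticulum, read 33.9, 30.4 and 32.6 FPKM with uric acid against 44.5, 40.1 and 34.8 FPKM untreated. The groups of Hspa13 did not overlap, but its log2 fold change of -0.30 ± 0.09 missed the threshold (edgeR adjusted p = 0.0696) and passed it without untreated library 3 (0.0444) and with DESeq2 (0.0199). The remaining 3 tested HSP70 genes had log2 fold changes from -0.25 to 0.00, and Hspa1l and Hspa12b were not tested, with means of 0.0871 and 0.257 FPKM over all libraries.

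Hsph1, the HSP110 that releases ADP from HSP70 and so reopens it for a new client, was the member with the smallest p. It read 17.2, 13.9 and 16.4 FPKM with uric acid, against 24.8, 25.6 and 23.0 FPKM untreated. The groups were far apart, with the lowest value again in uric acid library 2. The means were 15.8 ± 1.69 and 24.4 ± 1.34 FPKM (SD, n = 3 each), a log2 fold change of -0.63 ± 0.09 (edgeR adjusted p = 0.00411), or 35.2% lower. The adjusted p ran from 0.0033 to 0.0329 with any 1 of the 6 libraries left out. Hsph1 (ENSRNOG00000000902) lies on chromosome 12 from 6322668 to 6341902 in the deposited coordinates.

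The other HSP110 genes did not pass the threshold. Hspa4, the constitutive HSP110, read 57.4, 62.4 and 58.9 FPKM with uric acid against 63.3, 61.1 and 58.5 FPKM untreated (log2 fold change -0.04 ± 0.06, edgeR adjusted p = 0.764), and was chosen after its values were seen. Hspa4l, a related gene named for its likeness to Hspa4, read 10.3, 9.45 and 9.01 FPKM with uric acid against 8.16, 7.95 and 7.60 FPKM untreated. All 3 uric acid values of Hspa4l were higher, with a log2 fold change of 0.28 ± 0.08 that missed the threshold (edgeR adjusted p = 0.0592), and it passed with DESeq2 (0.0228), with features of at least 5 FPKM (0.0484) and without uric acid library 3 (0.0415). Whether the fold changes of the 3 HSP110 genes differ from each other was not tested.

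The upstream sequences of Hspa8 and Hsph1 are shown because both hold the full heat shock element that the family is known for. They are RefSeq sequences on build GRCr8, given from 250 bases before the gene start up to the base before it. Capitals mark 3 alternating GAA and TTC units, that is GAANNTTCNNGAA or TTCNNGAANNTTC, which are reverse complements, so that both strands are covered.
Hspa8, chr8:50080264-50080513, plus strand: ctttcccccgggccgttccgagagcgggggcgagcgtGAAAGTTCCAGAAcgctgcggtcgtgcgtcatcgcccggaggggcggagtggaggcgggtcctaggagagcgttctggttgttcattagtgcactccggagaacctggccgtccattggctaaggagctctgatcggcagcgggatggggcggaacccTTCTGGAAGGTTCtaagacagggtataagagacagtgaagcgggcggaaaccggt
Hsph1, chr12:10427118-10427367, plus strand: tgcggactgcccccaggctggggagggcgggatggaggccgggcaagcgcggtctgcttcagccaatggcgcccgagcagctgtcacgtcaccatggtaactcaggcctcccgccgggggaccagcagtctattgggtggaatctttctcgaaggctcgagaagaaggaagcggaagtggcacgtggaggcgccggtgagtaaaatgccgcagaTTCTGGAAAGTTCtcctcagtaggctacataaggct

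The promoter table holds 250 bases before and 50 after each gene start, and a single window was found for 46 of the 57 member symbols. Bag6 had 2 windows and was not searched; Bag4, Bag5l1, Cct8l1, Dnaja2, Dnajb4, Hsf1, Hsp90aa1, Hspa12a, Hspa1b and Hspb11 are named only. The 3-unit element was found in 4 of the 46 windows (8.7%), those of Hspa8, Hsph1, Dnaja1 and Cct4. It was in 0.798% of all 33469 windows in the table, which include untested genes and symbols with several windows. Among tested features with a single window per symbol it was in 0.475% of 8218 windows. Among members with a window it was in 3 of the 5 that fell and in 1 of the 32 that were tested and did not pass. Hspa8 holds it at 2 places, starting at positions -213 and -55 relative to the gene start, and Hsph1 at 1 place, starting at -36. In Dnaja1 and Cct4 it lies just after the start, and these short stretches are shown for comparison with the same capitals.
Dnaja1, chr5:60638405-60638433, plus strand: gccgggcgGAACTTTCCAGAAcgctcggt
Cct4, chr14:101193074-101193102, plus strand: gcgtcgctTTCTGGAAGGTTCgtggaggc

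Cct4 shares all its element letters with the nearer element of Hspa8, and it did not pass the threshold. A shorter form with 2 units, GAANNTTC or TTCNNGAA, which every 3-unit match also contains, was in 15 of the 46 member windows (32.6%). This form was in 15.9% of all windows and in 11.1% of those of tested features with a single window per symbol. It was in 4 of the 5 members that fell and in 9 of the 32 that did not pass. Dnajb1 and Stip1 carry it next to the gene start, with no 3-unit match, and the capitals now mark the 2 units.
Dnajb1, chr19:41431142-41431160, minus strand: gaggggcgGAAGGTTCtgg
Stip1, chr1:213657655-213657670, minus strand: ctagtaggTTCCAGAA

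No match was found in the window of Ahsa2. The letters are a description of these windows, and binding of a factor was not measured.

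**Figure D2:**
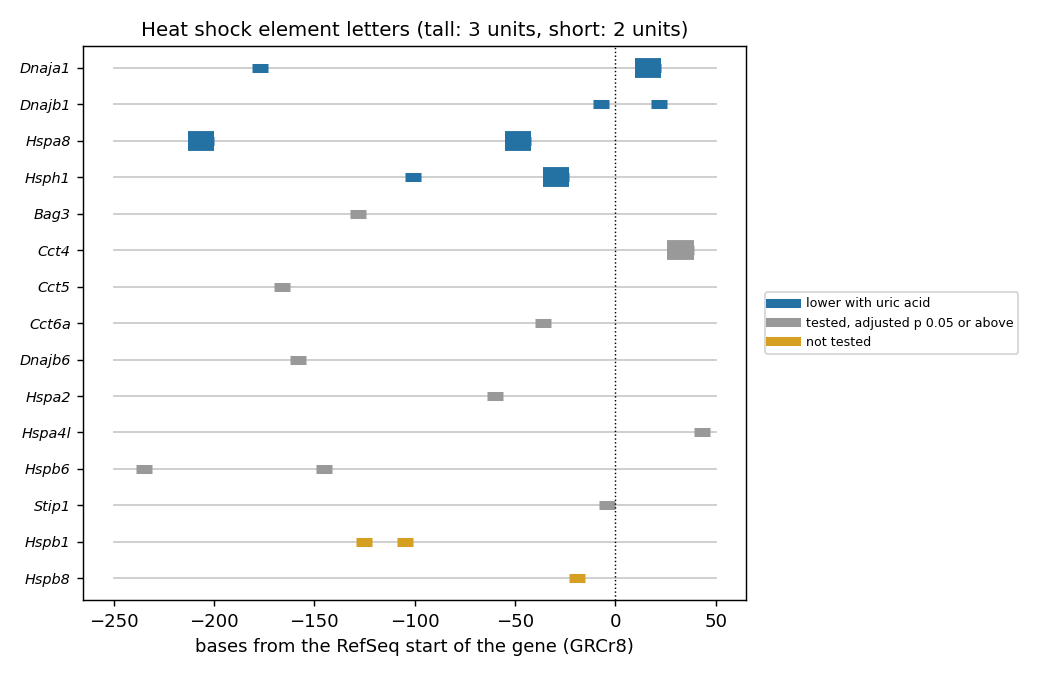
Places of the heat shock element letters along the promoter windows of the 15 members with a match, in bases from the RefSeq gene start (dotted line at the start). Tall bars are 3-unit and short bars 2-unit matches; the 4 tall rows are Dnaja1, Hspa8 and Hsph1, which fell, and Cct4, which did not.

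J proteins deliver clients to HSP70, and 1 gene of each class fell. Dnaja1, the most abundant J protein of the set, read 172, 179 and 172 FPKM with uric acid, against 224, 212 and 217 FPKM untreated. The 3 values of each group lay close together and the groups were well apart. The means were 174 ± 3.97 and 218 ± 5.81 FPKM (SD, n = 3 each), a log2 fold change of -0.32 ± 0.06 (edgeR adjusted p = 0.0133), or 20.1% lower. The adjusted p of Dnaja1 was above 0.05 in 3 of the fits on fewer libraries, at 0.0773 when uric acid library 1 was dropped, and at 0.0517 and 0.0645 when untreated library 1 and untreated library 2 were. Dnaja1 (ENSRNOG00000007029) lies on chromosome 5 from 57028467 to 57039378 in the deposited coordinates and contains the tested feature Mir207 on the same strand (log2 fold change -0.38).

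Dnajb1, the heat-inducible J protein known as HSP40, read 16.1, 17.2 and 15.2 FPKM with uric acid, against 19.8, 22.2 and 20.9 FPKM untreated. Uric acid again lay below in every library, at a log2 fold change of -0.38 ± 0.08 (edgeR adjusted p = 0.0282). With 1 library left out the Dnajb1 call held only without uric acid library 2 (0.0198), and the other 5 adjusted p-values ran from 0.0518 to 0.147. Dnajb1 (ENSRNOG00000021824) lies on chromosome 19 from 24747178 to 24750919.

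Dnajb4, a class B relative of Dnajb1, moved the other way. It read 8.78, 8.47 and 9.01 FPKM with uric acid, against 6.83, 6.88 and 5.66 FPKM untreated. The groups did not overlap, and the log2 fold change was 0.44 ± 0.11 (edgeR adjusted p = 0.0384). The Dnajb4 call was lost whichever library was left out (0.0501 to 0.115) and when all features above 0 FPKM were tested (0.0571). Of the 4 class A genes 1 fell and none rose, and of the 8 tested class B genes 1 fell and 1 rose. Over all tested features 2.99% fell and 4.99% rose, and each of these class counts rests on 1 gene. Dnajb6, the most abundant class B gene and a suppressor of protein aggregation, read 33.9, 34.0 and 32.7 FPKM with uric acid against 35.1, 36.6 and 34.0 FPKM untreated (log2 fold change -0.07 ± 0.06, edgeR adjusted p = 0.51). The other class A and B genes that did not pass had log2 fold changes from -0.24 in Dnaja2 to 0.35 in Dnajb13. Neither of these 2 overlapped between groups, as for 31.0% of all tested features (edgeR adjusted p = 0.0738 and 0.276). DESeq2 called 2 of the 4 class A genes lower and none higher. Of the 8 class B genes it called 1 lower and 1 higher. Over all tested features it called 6.36% lower and 7.8% higher. Dnajb7 was not tested, at a mean of 0.0204 FPKM.

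**Figure D3:**
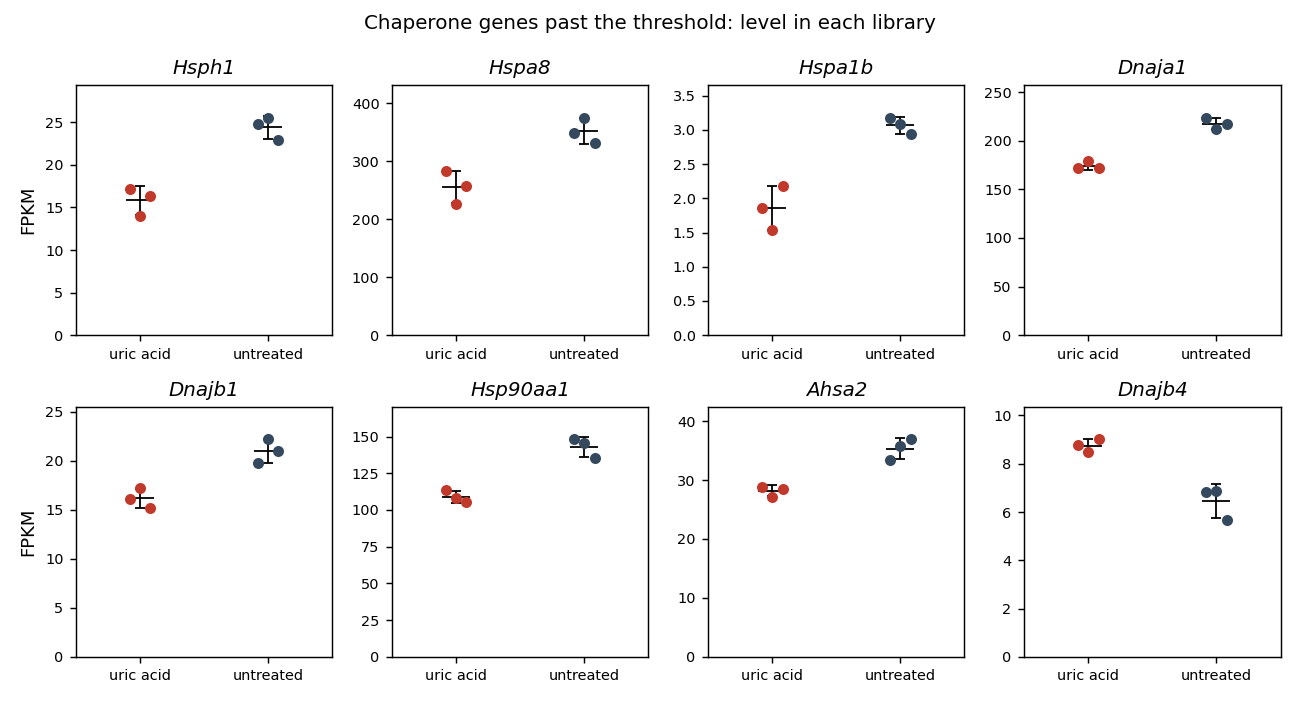
FPKM of the 8 members past the threshold in each of the 3 uric acid (red) and 3 untreated (dark) libraries; the black line is the mean and the bar the SD, and every axis starts at 0. The uric acid points lie below the untreated points for 7 genes and above them for Dnajb4.

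BAG proteins, which also reopen HSP70, did not pass in either direction. Bag6, which guards proteins bound for membranes, was the most abundant gene of the exchange factors at 65.9, 58.3 and 67.0 FPKM with uric acid against 70.4, 64.1 and 66.8 FPKM untreated (log2 fold change -0.08 ± 0.07, edgeR adjusted p = 0.548). Bag3, which couples HSP70 to autophagy, read 14.0, 13.3 and 15.1 FPKM with uric acid against 18.4, 16.2 and 16.1 FPKM untreated. Its groups did not overlap, and its log2 fold change of -0.26 ± 0.09 missed the threshold (edgeR adjusted p = 0.0964). In the group of 10 exchange factors Hsph1 alone passed in edgeR, 1 higher and 3 lower had an unadjusted p under 0.05 (13.7% and 12.0% of all tested features), and apart from Hsph1 and Hspa4l the log2 fold changes ran from -0.37 in Bag4 to 0.15 in Bag5.

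HSP90 has 2 cytosolic genes, the more inducible Hsp90aa1 and the constitutive Hsp90ab1, and the first fell. Hsp90aa1 read 113, 108 and 105 FPKM with uric acid, against 148, 146 and 135 FPKM untreated. The highest uric acid value lay well under the lowest untreated one. The means were 109 ± 4.12 and 143 ± 6.77 FPKM (SD, n = 3 each), a log2 fold change of -0.39 ± 0.06 (edgeR adjusted p = 0.00666), or 23.9% lower. The call was lost only without untreated library 2 (0.0546) among the 6 fits with 1 library left out. Hsp90aa1 (ENSRNOG00000059714) lies on chromosome 6 from 135107271 to 135112775.

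Hsp90ab1, the most abundant member of all, read 722, 644 and 732 FPKM with uric acid, against 748, 772 and 774 FPKM untreated. Its groups did not overlap, but they were close, and uric acid library 2 stood apart as the lowest. The log2 fold change was -0.13 ± 0.06 (edgeR adjusted p = 0.239). Hsp90aa1 made up 13.6, 14.4 and 12.6% of the FPKM of the pair with uric acid, against 16.5, 15.9 and 14.9% untreated. The log2 ratio of Hsp90aa1 to Hsp90ab1 was -2.68 ± 0.11 with uric acid and -2.42 ± 0.09 untreated (SD, n = 3 each), a difference of -0.26. An exact two-sided permutation test of that ratio gave p = 0.1, the smallest p that this test can give with 3 libraries against 3, so the test could not reach 0.05.

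**Figure D4:**
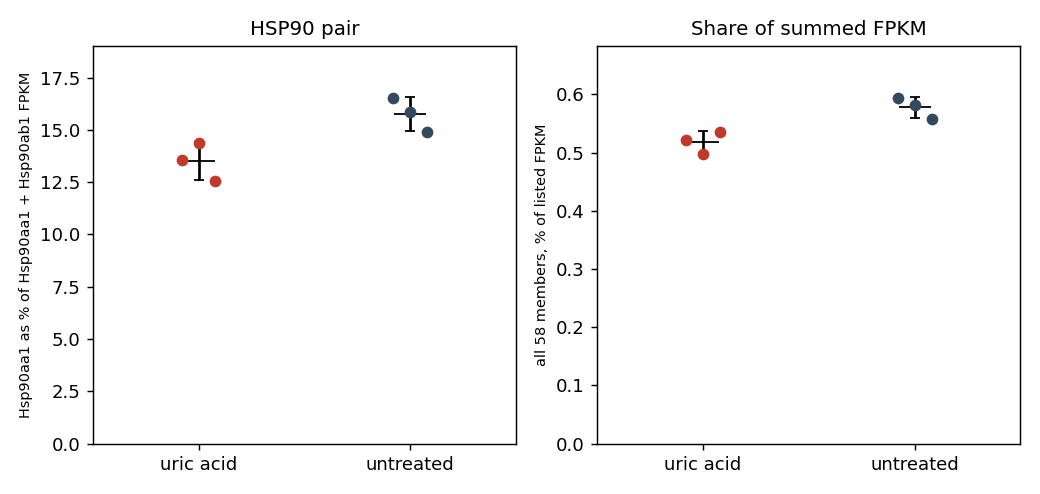
Left: FPKM of Hsp90aa1 as a percent of Hsp90aa1 plus Hsp90ab1 in each uric acid (red) and untreated (dark) library; right: summed FPKM of the 58 members as a percent of all listed FPKM; lines and bars are means and SD. In both panels the 3 uric acid libraries lie below the 3 untreated libraries, with the pair at 12.6 to 14.4% against 14.9 to 16.5%.

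Of the 3 HSP90 helpers 1 fell, where 2.99% of all tested features did. Ahsa2, a relative of the HSP90 ATPase activator Ahsa1, read 28.9, 27.2 and 28.5 FPKM with uric acid, against 33.4, 35.7 and 36.9 FPKM untreated. The groups did not overlap, and the log2 fold change was -0.33 ± 0.08 (edgeR adjusted p = 0.0359). The Ahsa2 call was lost whichever library was left out (0.0529 to 0.156) and when all features above 0 FPKM were tested (0.057). Stip1, the adaptor between HSP70 and HSP90, read 127, 128 and 121 FPKM with uric acid against 139, 147 and 149.8 FPKM untreated. All 3 values of Stip1 were lower with uric acid, at a log2 fold change of -0.22 ± 0.06 that missed the threshold (edgeR adjusted p = 0.0675) and passed with DESeq2 (0.02). Ahsa1 itself, chosen for its kinship with Ahsa2 after its values were seen, overlapped between groups at 34.4, 38.2 and 34.2 against 33.0, 35.3 and 36.0 FPKM (log2 fold change 0.03 ± 0.08, edgeR adjusted p = 0.828).

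The CCT chaperonin showed no change past the threshold. Its 8 tested subunits gave none higher and none lower in edgeR or in limma on log2(FPKM + 1), 1 higher and 2 lower at an unadjusted p under 0.05 (13.7% and 12.0% of all tested features), and 1 lower, Tcp1, in DESeq2 (adjusted p = 0.0479), which called 6.36% of all tested features lower. The complex holds its subunits in equal numbers, and their transcript levels per length were unequal: Cct4 was 3.72 to 4.17 times Cct3 with uric acid, against 3.17 to 3.31 times for the highest subunit over Cct3 untreated. From high to low the order was Cct4, Cct7, Cct5, Cct2, Cct8, Cct6a, Tcp1 and Cct3 in all 3 uric acid libraries and in untreated libraries 1 and 2, and untreated library 3 differed by Cct7 standing above Cct4. The summed level of the 8 was 716, 784 and 699.9 FPKM with uric acid, against 735, 727 and 733 FPKM untreated, so the uric acid values lay on both sides of the untreated ones.

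Within the complex the subunits with the largest shifts went in opposite directions. Cct4 read 141, 164 and 134 FPKM with uric acid against 128, 126 and 125 FPKM untreated. Uric acid library 2 stood highest, and the log2 fold change of 0.21 ± 0.08 missed the threshold (edgeR adjusted p = 0.148). Tcp1, the alpha subunit, read 54.9, 56.9 and 52.9 FPKM with uric acid against 62.2, 62.6 and 62.1 FPKM untreated (log2 fold change -0.18 ± 0.06, edgeR adjusted p = 0.1). Tcp1 overlaps Acat2l1 on the other strand, and the strand used in counting is not stated. Cct6a read 66.1, 68.4 and 65.9 FPKM with uric acid against 76.1, 74.8 and 73.4 FPKM untreated (log2 fold change -0.16 ± 0.06, edgeR adjusted p = 0.115). Neither Tcp1 nor Cct6a overlapped between groups, and both missed the threshold.

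The other 5 subunits overlapped between groups. Cct7 read 118, 134 and 115 FPKM with uric acid against 123.2, 119.9 and 129 FPKM untreated. Cct5 read 118, 127 and 113 against 118, 116 and 118 FPKM, and Cct2 read 101, 114 and 103 against 105, 104 and 106 FPKM, each with uric acid first. Uric acid library 2 was the highest of the uric acid libraries for Cct7, Cct5 and Cct2, as it was for Cct4. Cct8 read 80.8, 80.4 and 79.7 FPKM with uric acid against 83.4, 83.7 and 79.7 FPKM untreated, and it overlaps Usp16 on the other strand. Cct3 read 35.7, 39.3 and 35.9 FPKM with uric acid against 39.6, 39.7 and 39.1 FPKM untreated. Log2 fold changes of these 5 ran from -0.09 to 0.02. Cct6b, the testis form, was not tested at a mean of 0.33 FPKM.

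**Figure D5:**
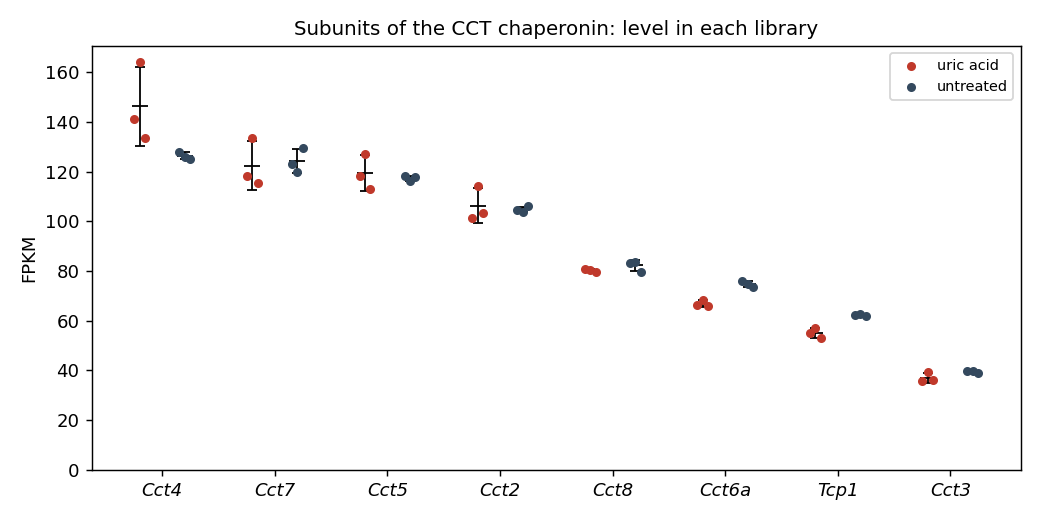
FPKM of the 8 tested CCT subunits in each uric acid (red, left of each pair) and untreated (dark) library, ordered by mean level, with mean and SD in black. The untreated values are tight and the uric acid values of Cct4, Cct7, Cct5 and Cct2 are spread by library 2, which reads 164 FPKM for Cct4.

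Neither heat shock factor passed the threshold in edgeR. Hsf1, the main activator of heat shock genes, read 18.6, 20.8 and 16.8 FPKM with uric acid, against 15.9, 14.9 and 15.2 FPKM untreated. All 3 uric acid values were higher, and the log2 fold change of 0.29 ± 0.09 missed the threshold in edgeR (adjusted p = 0.0912) and passed it in DESeq2 (0.0478) and without uric acid library 3 (0.0366). Hsf2, a related factor active in development, read 3.35, 3.82 and 3.96 FPKM with uric acid against 4.64, 3.85 and 3.72 FPKM untreated, and its groups overlapped (log2 fold change -0.13 ± 0.14, edgeR adjusted p = 0.572). Activity of HSF1 protein was not measured.

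Small heat shock proteins hold unfolded clients without ATP, and only genes with an Hspb symbol were looked at. These were listed below 1 FPKM on average apart from Hspb6, with Hspb11 matching by name. Hspb6 read 18.7, 18.4 and 17.3 FPKM with uric acid against 15.3, 15.3 and 21.3 FPKM untreated, with the highest value in untreated library 3 (log2 fold change 0.07 ± 0.14, edgeR adjusted p = 0.807). Hspb1, the widely expressed HSP27, was listed at 0.287, 0 and 0.139 FPKM with uric acid, from estimated counts of 15, 0 and 7, and at 0 in all 3 untreated libraries. Hspb7, Hspb8 and Hspb9 had means of at most 0.243 FPKM and were not tested. Of the 2 tested genes with this name, Hspb6 and Hspb11, none was called in edgeR, DESeq2 or limma and none had an unadjusted p under 0.05.

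Other cytosolic folding genes, listed from their known roles and outside the 58, gave no call in edgeR. They numbered 44, with prefoldins, class C J proteins, the nascent-chain factors Naca and Btf3, HSP90 helpers such as Fkbp4 and Ptges3, and ubiquitin genes, and 43 were tested. In edgeR none was higher and none lower, with 1 higher and 3 lower at an unadjusted p under 0.05 (13.7 and 12.0% of all tested features), none in limma on log2(FPKM + 1), and 1 lower in DESeq2. The 4 with an unadjusted p under 0.05 were Vcp, an ATPase that pulls proteins from complexes, at a log2 fold change of -0.26, the myosin chaperone Unc45a at -0.25, the HSP90 immunophilin Fkbp4 at -0.19, and Naca at 0.25. Over the 43 tested genes of this list the median log2 fold change was -0.03, against -0.07 for the 47 tested members. In the endoplasmic reticulum Hspa5, the HSP70 of that compartment, read 482, 419.98 and 496 FPKM with uric acid against 663, 664 and 607 FPKM untreated and fell by 0.47 on the log2 scale (edgeR adjusted p = 0.00756), while Hsp90b1 (-0.24), Dnajb11 (-0.30) and Dnajb9 (-0.23) had values below 0 that missed the threshold in edgeR. All 3 uric acid libraries lay below all 3 untreated libraries for each of these 4 genes, against 14.2% of all tested features. DESeq2 called 3 of the 4 lower, where it called 6.36% of all tested features lower. Of 12 mitochondrial chaperones and proteases 1 fell (8.33%, against 2.99% of all tested features). It was Hspd1, at 121, 114 and 114 FPKM with uric acid against 136, 142 and 136 FPKM untreated (log2 fold change -0.25 ± 0.06, edgeR adjusted p = 0.032). Of the fits with 1 library dropped, Hspd1 passed solely in the fit lacking uric acid library 2 (edgeR adjusted p = 0.0487).

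Summed over all 58 members, chaperone transcripts held 0.521, 0.497 and 0.536% of the listed FPKM with uric acid, against 0.594, 0.581 and 0.558% untreated. The sums were 2795, 2740.3 and 2729 FPKM with uric acid against 3043, 3076 and 3022 FPKM untreated. Hsp90ab1, Hspa8, Dnaja1, Stip1 and Hsp90aa1 with the CCT subunits make up most of that sum. Averaged over the 7 members that fell, which were chosen on the same contrast, uric acid libraries 1, 2 and 3 lay at -0.43, -0.53 and -0.44 and untreated libraries 1, 2 and 3 at -0.01, 0.03 and -0.02 on the log2 scale from the untreated mean, and no test is given for that average.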

How the data were processed

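Members were found by symbol, and they, the lists and the tests were chosen with earlier results of these data known. Per the submitters' processing notes, StringTie 1.3.4d, HISAT2 2.0.4, edgeR, cutadapt 1.9 and DESeq2 were used, with no role for each; strand setting, genome build and annotation are not given in the sources used here. Per the file headers, the deposited table gives an FPKM value, scaled by the authors to transcript length and library size, and a count for each gene and library. The deposited counts are estimated counts in whole numbers, and the header does not say what part of a read pair 1 count is. All value columns were matched to a library by its title.

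Features averaging 1 FPKM or more over the 6 libraries were tested in edgeR 4.0.16 (R 4.3.3; quasi-likelihood F test, TMM factors 0.992 to 1.009, no covariate, common biological coefficient of variation 0.127, which sets the precision), two-sided, at a Benjamini-Hochberg adjusted p under 0.05 over all 12460 tested features. The standard error of an edgeR fold change was taken as its absolute log2 value over the square root of F. Fits were also run on simulated counts, with the same coefficient of variation for every feature, set below the 0.127 estimated here. That run does not give the error rates in these data. Alternatives were RLE, upper-quartile or no scaling factors, DESeq2 1.42.0, limma 3.58.1 with trend on log2(FPKM + 1) or log2(FPKM + 0.1), filters at a mean above 0 or of at least 5 FPKM, the replicate number as a block, and each library left out; counts divided by 4 were added after seeing the data. Named members were those past the threshold, the markers Hsph1, Hspa8 and Hsp90aa1, the most abundant of each role group, a fixed set with every CCT subunit, and the 3 with the smallest p among those that missed. Heat shock element letters were searched in RefSeq promoter windows (GRCr8).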

Additional observations from a re-analysis of the deposited data

How the results depend on the processing

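The 7 falls kept their direction in every alternative that tested them, and all 7 stayed past the threshold under RLE, upper-quartile and no scaling factors, DESeq2, both limma fits and counts divided by 4. DESeq2 called 3 members higher and 11 lower, where it called 7.8% of all tested features higher and 6.36% lower (972 and 793 features); limma on log2(FPKM + 1) called 1 and 7. With features above 0 FPKM, 0 members were higher and the median log2 fold change of the members was -0.040; with at least 5 FPKM, 2 were higher. With 1 library left out, members higher numbered 0 to 2 and lower 1 to 5, all features higher 165 to 707 and lower 66 to 466, other cytosolic folding genes lower 0 to 2, and the members' median -0.079 to -0.029. Other cytosolic folding genes lower numbered 1 with upper-quartile scaling and 1 with DESeq2.

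No pairing by replicate number was visible: same-numbered libraries' deviations from their group means correlated at 0.0684, -0.0492 and -0.19 across genes. Those of differently numbered libraries correlated at -0.225 to 0.259. With 3 libraries per group this check cannot exclude that the libraries were paired. With the replicate block, members higher numbered 0 and lower 2, and all features 223 and 99. The log2 ratio of Hsp90aa1 to Hsp90ab1 kept its direction, at -0.32 to -0.20 with 1 library left out and -0.26 with the replicate block (exact sign-flip p = 0.25, the smallest that 3 pairs allow). Among the 28 named genes, 4 with values near 0 changed sign when 1 library was left out: Hspb6 (-0.020 and -0.018 without untreated libraries 1 and 2, up to 0.25 otherwise), Cct5 (-0.028 to 0.066), Cct2 (-0.040 to 0.062) and Cct7 (-0.094 to 0.022, above 0 in 3 of the 6); the cause was not tested. Over all tested members, values below 0 numbered 30 in edgeR, 29 in both limma fits and with counts divided by 4, and 27 to 34 with 1 library left out. Hspa1b rests on the lowest counts of the 8 calls and stayed called with counts divided by 4 (adjusted p = 0.0259); the 11 members below 1 FPKM were not tested.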

Other observations

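Bag5 and Bag5l1, chosen after their values were seen, are listed as 2 genes on chromosome 6, and the RefSeq gene table gives Bag5l1 as another name of Bag5. Bag5 read 14.0, 17.2 and 13.4 FPKM with uric acid against 13.1, 13.4 and 13.6 FPKM untreated, and Bag5l1 read 12.4, 15.4 and 12.01 FPKM with uric acid against 11.5, 11.6 and 12.2 FPKM untreated. Uric acid library 2 was the highest of all 6 libraries for both, and how reads were shared between these copies is not stated.

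Hspbap1 and Hspb11, which were drawn in by symbol and are not themselves chaperones, were both higher in every uric acid library without passing the threshold. Hspbap1 read 4.09, 5.15 and 4.11 FPKM with uric acid against 3.69, 3.31 and 3.36 FPKM untreated (edgeR adjusted p = 0.127). Hspb11 read 10.8, 12.6 and 10.2 FPKM with uric acid against 9.12, 9.69 and 9.18 FPKM untreated (edgeR adjusted p = 0.207).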
